A study of Mus musculus with 4 samples.

Results

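The genes described here are the angiogenic ligands and receptors of the VEGF and angiopoietin families on the array: the ligands Vegfa, Vegfb, Vegfc, Figf (also called Vegfd), Pgf, Angpt1 and Angpt2, and the receptors Kdr, Flt1 and Nrp1. They were chosen by name, as every array probe that is not a control and carries 1 of these gene names. No threshold on measured values was applied, but earlier results of these data were known. These are 10 of the 27561 genes with a value on all 4 arrays, with 21 probes and 48 spots between them.

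VEGF ligands are secreted factors that bind receptor tyrosine kinases, chiefly on endothelial cells. Vegfa drives vessel growth through Kdr, while Flt1 binds Vegfa, Vegfb and Pgf and also exists as a soluble form that traps ligand, and Nrp1 is a co-receptor for VEGF and for class 3 semaphorins. Vegfc and Figf act mainly on the lymphatic receptor Flt4, and Angpt1 and Angpt2 bind the receptor Tek, where Angpt1 activates and Angpt2 mostly opposes it. Vegfa is a textbook target of the hypoxia-inducible factors (HIF), and fibroblasts are a source of several of these ligands.

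Gene expression was measured by Agilent arrays hybridised with 1 dye (Cy3) in 4 samples of mouse embryonic fibroblasts (MEF), 1 array per condition. In 2 samples the cells carried the reprogramming genes Oct3/4, Sox2, Klf4 and c-Myc by transduction (four-factor cells), and were kept for 72 hours at 5% or at 21% O2, with a label of day 4. In the other 2 samples the fibroblasts were untransduced and had 10 days at 5% or at 21% O2. Mouse strain, number of embryos, vector and promoter are not given in the sources used here, nor is any replicate culture, so the number of arrays limits the precision and a difference between 2 arrays has no test.

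All values are log2 of the processed signal relative to the 75th percentile of the same array, so 0 is the brightness of that percentile and a difference of 1.0 is 2-fold. The signal at that percentile was 1148 (5% O2) and 1136 (21% O2) in four-factor cells, and 871 (5% O2) and 810 (21% O2) in untransduced fibroblasts. No spot was saturated, and 57.1% to 68.4% of probes were well above background. The arrays of each culture shared a slide and a scan. Each oxygen comparison thus lies inside 1 slide, but between cultures, transduction cannot be told apart from days grown, slide or scan. In four-factor cells Pou5f1, the gene of Oct3/4, was at least 30.5-fold (5% O2) and 20.4-fold (21% O2) higher than in untransduced fibroblasts, where it was dim. The Myc probe with the most signal was also higher there, by 4.17 (5% O2) and 2.59 (21% O2), but Klf4 was lower by -1.70 and -1.14, and 1 of the 3 Myc probes and the Sox2 probe were lower as well. Which part of these genes the vectors carried is not stated, so a lower probe checks nothing. All 12 fibroblast markers looked at were well above background on all 4 arrays, a bar that most probes of each array also passed. In four-factor cells 8 of the 12 were at least 2-fold lower than in untransduced fibroblasts at each oxygen level.

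Promoter sequences are shown first for the genes that the oxygen results turn on, since HIF binds DNA at the letters ACGTG or GCGTG. RefSeq's table (GRCm38.p6) gave 10 entries of 300 bases, from 250 before to 50 after a gene's start, for 8 of the 10 genes; Angpt1 and Angpt2 had none. Both motifs were searched on both strands, and they do not overlap each other in these entries. Capitals mark a match, written as ACGTG or GCGTG where it reads along the gene and as CACGT or CACGC where it lies on the other strand. Vegfa and Vegfb are shown as the members higher at 5% O2 with all of their probes in both cultures, and Vegfc as a ligand with no match.
Vegfa, upstream of its more downstream annotated start, chr17:46025114-46025413, minus strand: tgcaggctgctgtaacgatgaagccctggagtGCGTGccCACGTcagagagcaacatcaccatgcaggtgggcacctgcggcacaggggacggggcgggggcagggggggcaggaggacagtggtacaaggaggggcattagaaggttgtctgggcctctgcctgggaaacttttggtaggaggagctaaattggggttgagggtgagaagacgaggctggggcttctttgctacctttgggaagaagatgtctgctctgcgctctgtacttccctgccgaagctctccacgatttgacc
Vegfa, other annotated start, chr17:46032328-46032627, minus strand: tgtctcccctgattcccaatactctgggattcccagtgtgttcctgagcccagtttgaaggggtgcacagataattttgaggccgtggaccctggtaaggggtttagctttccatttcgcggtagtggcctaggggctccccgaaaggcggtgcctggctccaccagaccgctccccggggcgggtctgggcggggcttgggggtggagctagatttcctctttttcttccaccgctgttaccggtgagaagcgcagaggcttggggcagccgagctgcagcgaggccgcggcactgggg
Vegfb, chr19:6987602-6987901, minus strand: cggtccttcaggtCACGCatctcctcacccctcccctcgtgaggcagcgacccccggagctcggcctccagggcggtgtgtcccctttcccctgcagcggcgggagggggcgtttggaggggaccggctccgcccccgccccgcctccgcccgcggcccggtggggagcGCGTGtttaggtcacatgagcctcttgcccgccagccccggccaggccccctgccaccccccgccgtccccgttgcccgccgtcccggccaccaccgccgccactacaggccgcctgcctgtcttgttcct
Vegfc, chr8:54077282-54077581, plus strand: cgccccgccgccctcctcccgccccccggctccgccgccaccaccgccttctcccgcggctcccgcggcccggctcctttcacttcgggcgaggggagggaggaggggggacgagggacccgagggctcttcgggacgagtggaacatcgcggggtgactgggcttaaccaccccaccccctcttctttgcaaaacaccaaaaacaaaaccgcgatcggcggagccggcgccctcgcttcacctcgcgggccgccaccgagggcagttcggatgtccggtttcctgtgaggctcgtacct
The first Vegfa entry held ACGTG at -211 and GCGTG at -218, counted in bases from that entry's annotated start to the first letter. The second Vegfa entry held neither. On the minus strand the first entry lies downstream of the second, so its matches lie past the other annotated Vegfa start, inside the gene as read from there. They are thus no match in a promoter at that start. Whether they lie in coding sequence was not analysed here. Vegfb had GCGTG at -237 and at -81. Matches were not limited to these ligands: Kdr had GCGTG at -131 and -89, Flt1 at -184, Nrp1 at -166 and 1 of the 2 Pgf entries at -124, while Vegfc and Figf had no match. In all, 6 of the 10 entries held a motif, against 43.8% of all 32851 promoters of the same length (19.6% with ACGTG and 32.4% with GCGTG). A match is a description of letters and says nothing of binding.

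All 10 genes had a probe well above background on all 4 arrays. Of the 21 probes, 18 were well above background on every array and 3 on none (1 of Kdr and 2 of Flt1). A gene is given by its brightest probe, and the other probes are set beside it, 6 genes having several and 4 having 1. Levels of different probes are not set against each other, because probes differ in how brightly they bind. Positions of probes are those of mouse build mm8 in the array files, and which exon or UTR they lie in was not analysed here.

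**Figure D1:**
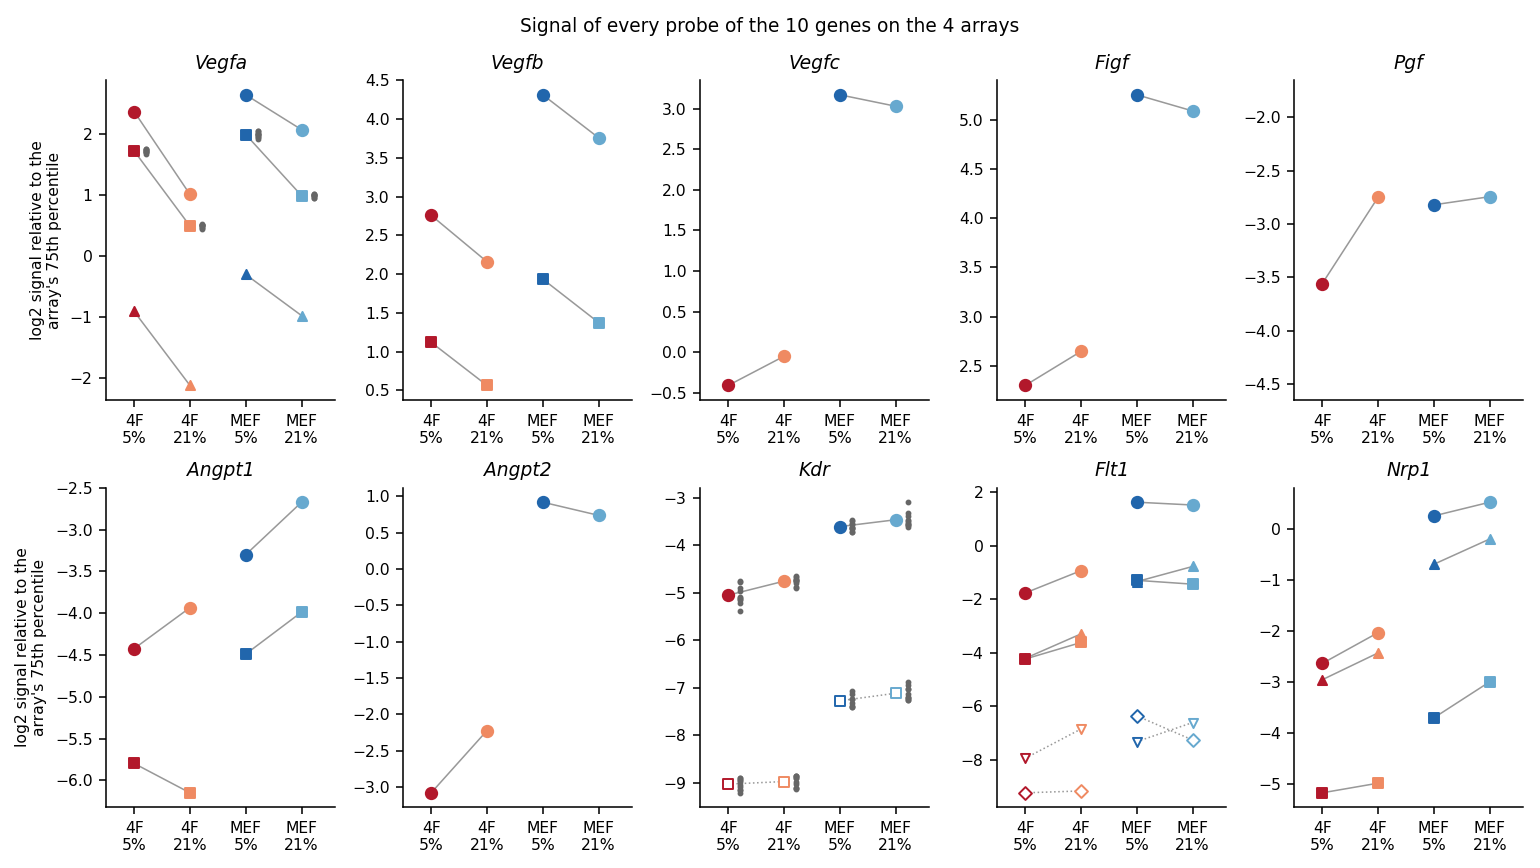
Log2 signal relative to the 75th percentile of the array (vertical axis, a scale of its own per gene) for every probe of the 10 genes in four-factor cells (4F) and untransduced fibroblasts (MEF) at 5% and 21% O2. Large circles are the brightest probe, other symbols the further probes, open symbols with dotted lines probes not well above background, and small grey points replicate spots; lines join the 2 oxygen levels of a culture. All 3 Vegfa probes and both Vegfb probes are higher at 5% O2 in both cultures, and Vegfc, Figf, Angpt2, Flt1 and Nrp1 lie far lower in four-factor cells.

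The oxygen comparisons ask how these genes differ between 5% and 21% O2 in each culture. Vegfa and Vegfb were higher at 5% O2 in both cultures. By their brightest probes the other 8 genes were lower at 5% O2 in four-factor cells, down to -0.86 (Angpt2). In untransduced fibroblasts they lay on either side of 0. Kdr turned to 0.07 in four-factor cells with the normexp background correction. A dimmer Angpt1 probe was higher at 5% O2 in four-factor cells, by 0.35. Only Vegfa in four-factor cells passed 2-fold by its brightest probe.

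Vegfa, the main angiogenic ligand, read 2.37 at 5% O2 and 1.02 at 21% O2 in four-factor cells on its brightest probe (chr17:45481019-45481078, minus strand). In untransduced fibroblasts this probe read 2.65 at 5% O2 and 2.08 at 21% O2. The 5% O2 array was thus the higher of each pair, by 1.36 (2.56-fold) in four-factor cells and 0.57 (1.49-fold) in the untransduced fibroblasts. These differences exceeded those of 99.5% and 92.8% of all genes compared in the same pair of arrays.

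A second Vegfa probe (chr17:45482144-45482203), printed in 10 spots per array, shows how far spotting and scanning alone scatter a value. Its mean was 1.73 ± 0.0259 at 5% O2 and 0.50 ± 0.0291 at 21% O2 in four-factor cells (SD over 9 spots kept on each array). In untransduced fibroblasts it was 2.0 ± 0.0415 at 5% O2 (SD, 10 spots) and 0.99 ± 0.0257 at 21% O2 (SD, 9 spots). No spot at 21% O2 reached the lowest spot at 5% O2: in untransduced fibroblasts the 5% O2 spots ran between 1.93 and 2.06 and the 21% O2 spots between 0.95 and 1.03. The difference on this probe was 1.23 (2.35-fold) in four-factor cells and 1.0 (2.0-fold) in the untransduced fibroblasts, so it put untransduced fibroblasts at the 2-fold line that the brightest probe did not reach. Spots of 1 array share an RNA sample and are no replicates of the condition.

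The remaining Vegfa probe (chr17:45489008-45489067) read -0.90 at 5% O2 and -2.11 at 21% O2 in four-factor cells, and -0.30 at 5% O2 and -0.97 at 21% O2 in untransduced fibroblasts. Its differences were 1.21 and 0.67. All 3 probes therefore gave the same direction in both cultures, and the difference in four-factor cells exceeded that in untransduced fibroblasts by 0.79, 0.23 and 0.54 on the brightest, the 10-spot and the remaining probe. The size of that gap depended on the probe, and with 1 array per condition it could not be tested.

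Vegfb, a ligand of Flt1 and Nrp1, read 2.76 at 5% O2 and 2.16 at 21% O2 in four-factor cells (chr19:7049516-7049573, minus strand). It read 4.31 at 5% O2 and 3.76 at 21% O2 in untransduced fibroblasts. Its second probe, 283 bases away, read 1.12 at 5% O2 and 0.56 at 21% O2 in four-factor cells, and 1.94 at 5% O2 and 1.37 at 21% O2 in untransduced fibroblasts. Both probes were higher at 5% O2 in both cultures by nearly the same amount, 0.60 and 0.56 in four-factor cells and 0.55 and 0.56 in untransduced fibroblasts, which is 1.47-fold to 1.51-fold and under the 2-fold line.

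The lymphatic ligands followed a different pattern. Vegfc (chr8:55684877-55684936, plus strand) read -0.41 at 5% O2 and -0.05 at 21% O2 in four-factor cells, and 3.17 at 5% O2 and 3.03 at 21% O2 in untransduced fibroblasts. Figf (chrX:159746568-159746627, plus strand) read 2.30 at 5% O2 and 2.65 at 21% O2 in four-factor cells, and 5.25 at 5% O2 and 5.09 at 21% O2 in untransduced fibroblasts. The differences of both genes had the same 2 signs, -0.36 (Vegfc) and -0.35 (Figf) in four-factor cells and 0.14 (Vegfc) and 0.16 (Figf) in untransduced fibroblasts. Pgf, the placental growth factor that binds Flt1 (chr12:86056488-86058490, minus strand), read -3.56 at 5% O2 and -2.75 at 21% O2 in four-factor cells, and -2.82 at 5% O2 and -2.74 at 21% O2 in untransduced fibroblasts. The 5% O2 four-factor array was the low one of the 4, with a difference of -0.81 in four-factor cells and -0.08 in the untransduced fibroblasts.

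Angpt1, the activating ligand of Tek (chr15:42257097-42257156, minus strand), read -4.42 at 5% O2 and -3.93 at 21% O2 in four-factor cells, and -3.30 at 5% O2 and -2.67 at 21% O2 in untransduced fibroblasts. By this probe it was lower at 5% O2 in both cultures, with differences of -0.49 in four-factor cells and -0.63 in the untransduced fibroblasts. A dimmer Angpt1 probe, 69.3 kb away, went the other way in four-factor cells, with -5.80 at 5% O2 and -6.15 at 21% O2 (a difference of 0.35), and the same way in untransduced fibroblasts, with -4.49 at 5% O2 and -3.99 at 21% O2 (-0.50). The extraction software put the error of this probe at 14.8% to 18.1% of its signal, against 10.5% to 12.0% for the brighter one. The Angpt1 direction in four-factor cells is therefore uncertain. Angpt2, the antagonist of Angpt1 (chr8:18691435-18691494, minus strand), read -3.08 at 5% O2 and -2.22 at 21% O2 in four-factor cells, and 0.92 at 5% O2 and 0.74 at 21% O2 in untransduced fibroblasts. Its difference was -0.86 in four-factor cells and 0.18 in the untransduced fibroblasts. With normexp the differences in four-factor cells were -0.55 for Angpt2, -0.47 for Pgf and -0.13 for Angpt1.

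Among the receptors, Kdr (chr5:76214981-76215040, minus strand) was measured in 10 spots per array. It read -5.05 ± 0.201 at 5% O2 and -4.76 ± 0.0798 at 21% O2 in four-factor cells, and -3.61 ± 0.0883 at 5% O2 and -3.47 ± 0.157 at 21% O2 in untransduced fibroblasts (SD over 10 spots). The means were lower at 5% O2 by differences of -0.29 and -0.14, and the ranges of single spots overlapped between the 2 oxygen levels in both cultures. With the normexp background correction the difference in four-factor cells was 0.07.

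Flt1 (chr5:147872564-147872623, minus strand) read -1.76 at 5% O2 and -0.93 at 21% O2 in four-factor cells, and 1.63 at 5% O2 and 1.52 at 21% O2 in untransduced fibroblasts. A probe 73 bases away gave the same directions, with -4.23 at 5% O2 and -3.61 at 21% O2 in four-factor cells, and -1.29 at 5% O2 and -1.43 at 21% O2 in untransduced fibroblasts. Another probe 76.0 kb away, designed on another transcript record, read -4.20 at 5% O2 and -3.29 at 21% O2 in four-factor cells, but -1.34 at 5% O2 and -0.77 at 21% O2 in untransduced fibroblasts. In four-factor cells all 3 probes were lower at 5% O2, by -0.83, -0.62 and -0.91. In untransduced fibroblasts they disagreed, at 0.11, 0.14 and -0.57, so no single Flt1 direction can be given there; which transcript forms each probe reads was not analysed here.

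Nrp1 (chr8:131388840-131388899, plus strand) read -2.63 at 5% O2 and -2.03 at 21% O2 in four-factor cells, and 0.26 at 5% O2 and 0.53 at 21% O2 in untransduced fibroblasts. Its differences were -0.60 in four-factor cells and -0.27 in the untransduced fibroblasts. The other Nrp1 probes, 34.4 kb and 142.6 kb away, were also lower at 5% O2, by -0.53 and -0.19 in four-factor cells and -0.50 and -0.71 in untransduced fibroblasts. Nrp1 is thus the receptor whose 3 probes gave 1 direction in both cultures.

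**Figure D2:**
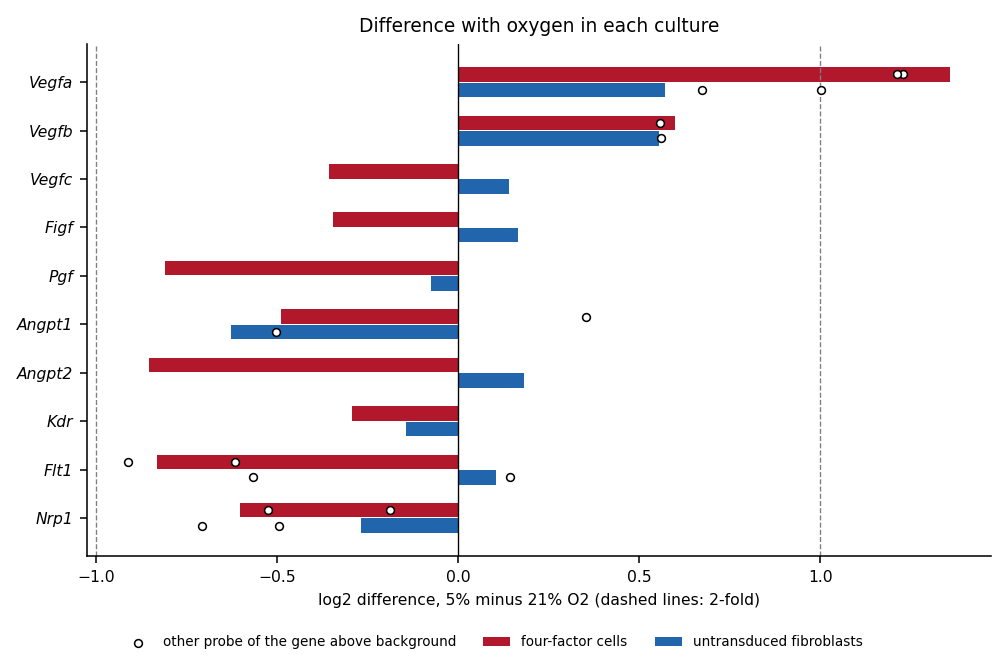
Log2 difference between 5% and 21% O2 (horizontal axis, positive is higher at 5% O2) for each gene in four-factor cells (upper bar) and untransduced fibroblasts (lower bar). Bars are the brightest probe, open circles the other probes well above background, and there is no error bar because each condition has 1 array. Vegfa reaches 1.36 in four-factor cells, Vegfb lies at 0.60 and 0.55, and a circle of Angpt1 and 1 of Flt1 fall on the other side of 0 from their bar.

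Counted over the 10 genes, 2 were higher and 8 lower with 5% O2 in the four-factor culture, with a median of -0.42 against -0.01 for the 17910 genes measured on both arrays. At 2-fold or more 1 was higher (Vegfa) and 0 lower, where 1.26% of all genes were higher and 1.07% lower. In untransduced fibroblasts 6 were higher and 4 lower, with a median of 0.12 against -0.04 for 15183 genes, and 0 passed 2-fold in either direction, where 2.54% of all genes were higher and 1.73% lower. Scaling on the spike-in controls moved the median of all genes to 0.10 in four-factor cells and -0.12 in the untransduced fibroblasts, and with it 303 genes were higher and 124 lower at 2-fold in four-factor cells (225 and 192 as scaled here), and 315 and 323 in untransduced fibroblasts (386 and 262).

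The oxygen difference common to both cultures was tested with limma (lmFit and eBayes, Benjamini-Hochberg adjustment over 18265 genes) in a model with a term for culture and a term for oxygen. That model has 1 residual degree of freedom, and the disagreement between the cultures serves as its error. Vegfa was estimated at 0.96 (SE 0.26, limma adjusted p = 0.591) and Vegfb at 0.58 (SE 0.16, limma adjusted p = 0.591), each higher at 5% O2 in both cultures. Angpt1 was estimated at -0.56 (SE 0.16, limma adjusted p = 0.604) and Nrp1 at -0.44 (SE 0.18, limma adjusted p = 0.697), each lower in both by its brightest probe. The dimmer Angpt1 probe was higher at 5% O2 in four-factor cells, by 0.35. The test passed 0 of the 10 genes and 0 of all genes, that is 0% higher and 0% lower, with 646 higher and 755 lower at an unadjusted p under 0.05. With the normexp background correction 73 genes were higher and 95 lower, Vegfa among them (0.92, limma adjusted p = 0.0448; its range over the alternatives was 0.0448 to 0.798).

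**Figure D3:**
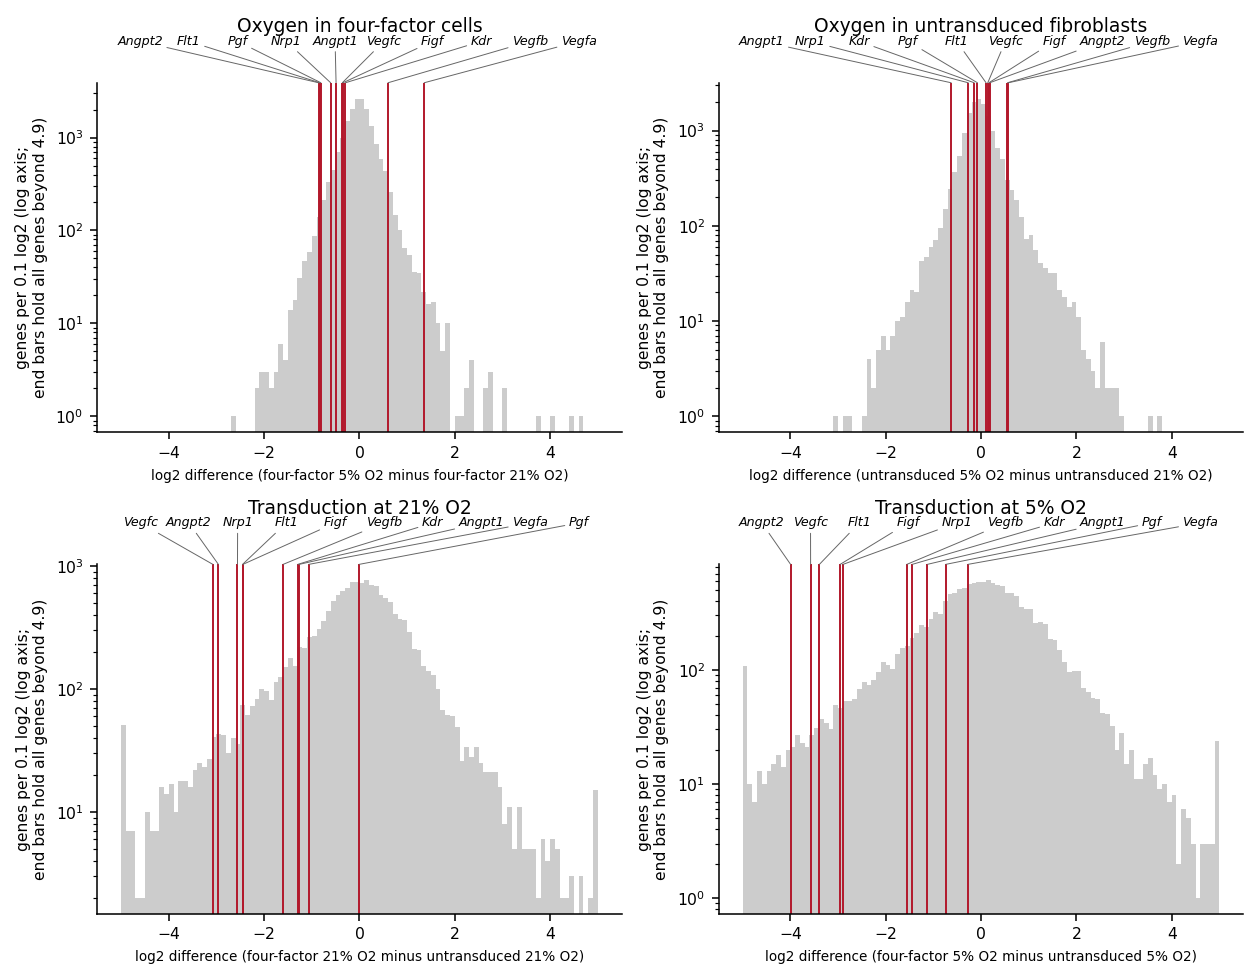
Number of genes per 0.1 log2 of difference (vertical axis, log scale) for the 4 comparisons, with each of the 10 genes as a red line at its own difference (horizontal axis). In four-factor cells Vegfa lies to the right of 99.5% of all genes, while in both comparisons of four-factor with untransduced cells all 10 lines lie at or left of 0 (Pgf at 21% O2 turned to 0.10 with quantile normalization and 0.50 with spike-in scaling, and Vegfa at 5% O2 to 0.43 with spike-in scaling).

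The culture comparisons ask how four-factor cells differ from untransduced fibroblasts at the same oxygen level. All 10 genes were lower in four-factor cells at both oxygen levels, ligands and receptors alike, but the Pgf difference at 21% O2 was -0.01 and turned to 0.10 with quantile normalization and 0.50 with spike-in scaling, which also turned Vegfa at 5% O2 to 0.43. Angpt2, Vegfc, Flt1, Figf and Nrp1 differed by -4.00 to -2.44 on the log2 scale, and Vegfb, Kdr and Angpt1 by -1.60 to -1.13. Vegfa and Pgf differed least. In bulk RNA, fewer cells that express a gene and less of its RNA per cell cannot be told apart.

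Vegfc was -0.41 (5% O2) and -0.05 (21% O2) in four-factor cells, against 3.17 (5% O2) and 3.03 (21% O2) in untransduced fibroblasts, so its signal was 0.0839 of that of untransduced fibroblasts at 5% O2 and 0.119 at 21% O2. The log2 differences were -3.58 and -3.08. Figf differed by -2.95 at 5% O2 and -2.44 at 21% O2. Angpt2 differed by -4.00 at 5% O2, the lowest of the 10 genes there, and by -2.96 at 21% O2, with a processed signal of 136 (5% O2) and 243 (21% O2) in four-factor cells, against 1645 (5% O2) and 1350 (21% O2) in untransduced fibroblasts. For these 3 ligands both four-factor arrays were below both untransduced arrays.

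The brightest Vegfb probe differed by -1.56 at 5% O2 and -1.60 at 21% O2 and the second one by -0.82 and -0.81, so the direction was shared and the 2-fold line was passed by 1 probe. Angpt1 differed by -1.13 at 5% O2 and -1.26 at 21% O2, and its dimmer probe by -1.31 and -2.16. With normexp the Angpt1 difference was -0.58 at 5% O2 and -0.89 at 21% O2, under 2-fold at both. Vegfa differed by -0.27 at 5% O2 and -1.06 at 21% O2. Its 10-spot probe gave -0.27 and -0.50 and its remaining probe -0.61 and -1.14. The Vegfa call at 21% O2 thus rests on the choice of probe, and at 5% O2 spike-in scaling turned its sign, to 0.43. Pgf differed by -0.74 at 5% O2 (-0.03 with spike-in scaling) and -0.01 at 21% O2.

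Of the receptors, Flt1 differed by -3.39 at 5% O2 and -2.45 at 21% O2, and its other 2 measured probes by -2.94 and -2.87 at 5% O2 and -2.18 and -2.52 at 21% O2. Nrp1 differed by -2.89 at 5% O2 and -2.56 at 21% O2, with -2.27 and -2.23 on the probe 34.4 kb away and -1.47 and -1.99 on the probe 142.6 kb away. All measured probes of both receptors were at least 2-fold lower in four-factor cells at both oxygen levels. Kdr differed by -1.44 at 5% O2 and -1.29 at 21% O2. Its spots did not overlap between cultures, the highest four-factor spot being -4.66 and the lowest untransduced spot -3.73. Spots of 1 array share an RNA sample, and the cultures lie on different slides, so the spots are no replicates of a culture. The other Kdr probe was not well above background on any array. Its signal was 2.19 (5% O2) and 2.26 (21% O2) in four-factor cells, against 5.61 (5% O2) and 5.83 (21% O2) in untransduced fibroblasts. The software put its error at 99.6% of the signal, so no direction is taken from it. With the normexp background correction the Kdr difference was -0.65 at 5% O2 and -0.83 at 21% O2, under 2-fold at both. With spike-in scaling it was -0.74 and -0.79, also under 2-fold.

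**Figure D4:**
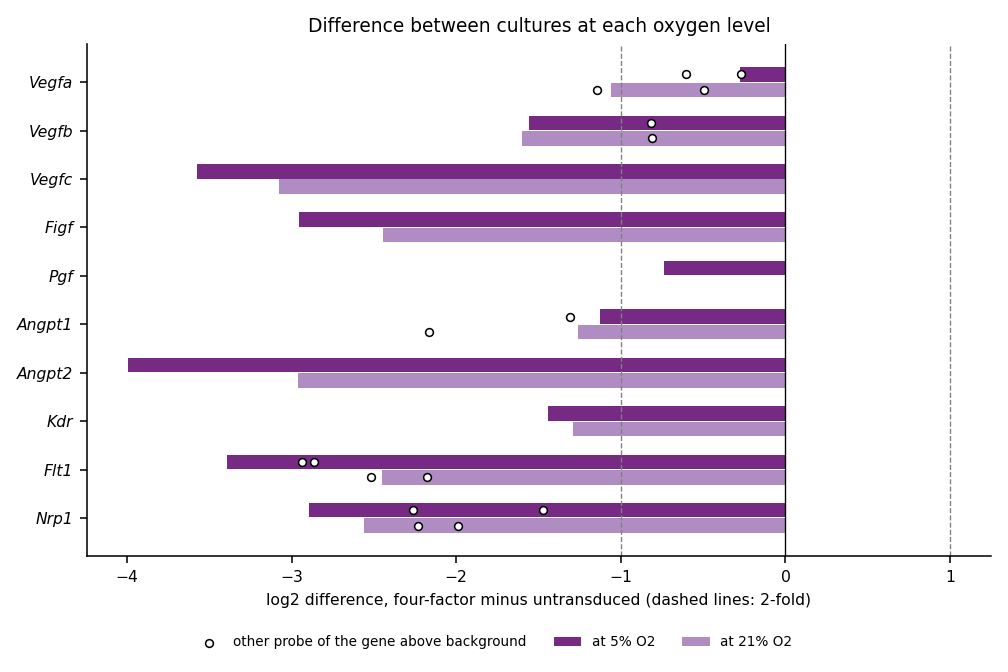
Log2 difference between four-factor cells and untransduced fibroblasts (horizontal axis, negative is lower in four-factor cells) for each gene at 5% O2 (upper bar) and 21% O2 (lower bar). Bars are the brightest probe and open circles the other probes well above background, with no error bar because each condition has 1 array. Every bar lies at or below 0, with Angpt2 at -4.00 and Vegfc at -3.58 the longest, and the Pgf bar at 21% O2 (-0.01) too short to see (0.10 with quantile normalization and 0.50 with spike-in scaling, which also turned Vegfa at 5% O2 to 0.43).

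At 2-fold or more, 8 of the 10 genes were lower and 0 higher in four-factor cells at 5% O2, where 20.0% of 15437 genes were lower and 17.1% higher. The 2 that did not pass were Vegfa and Pgf. At 21% O2, 9 were lower and 0 higher, all but Pgf, where 16.6% of 15204 genes were lower and 11.8% higher. The median of the 10 genes was -2.23 at 5% O2 and -2.02 at 21% O2, against -0.02 for all genes at each level. Normexp left 6 genes past 2-fold at each oxygen level, without Kdr and Angpt1 and, at 21% O2, without Vegfa, and quantile normalization left 7 at 5% O2, without Angpt1. Spike-in scaling moved the median of all genes to 0.69 (5% O2) and 0.48 (21% O2) and left 5 and 6 of the 10 genes past 2-fold, without Vegfb, Kdr and Angpt1 at 5% O2 and without Vegfa, Kdr and Angpt1 at 21% O2. With it, 5858 of all genes were higher and 1593 lower at 5% O2 (2639 and 3081 as scaled here), and 4016 and 1479 at 21% O2 (1800 and 2522).

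In the same limma model the culture term, common to both oxygen levels, was lower for 8 of the 10 genes and higher for 0, where 22.8% of the 18265 genes were lower and 27.3% higher at an adjusted p under 0.05. The ligands Vegfc (-3.33, SE 0.20, limma adjusted p = 0.00391), Angpt2 (-3.48, SE 0.31, limma adjusted p = 0.00583) and Figf (-2.70, SE 0.21, limma adjusted p = 0.00474) were lower in four-factor cells, as were the receptors Nrp1 (-2.73, SE 0.18, limma adjusted p = 0.00413) and Flt1 (-2.92, SE 0.29, limma adjusted p = 0.00683). Smaller differences in the same direction were those of Vegfb (-1.58, SE 0.16, limma adjusted p = 0.00713), Kdr (-1.37, SE 0.16, limma adjusted p = 0.00918) and Angpt1 (-1.19, SE 0.16, limma adjusted p = 0.0115). Vegfa (-0.67, SE 0.26, limma adjusted p = 0.102) and Pgf (-0.37, SE 0.25, limma adjusted p = 0.271) did not pass. The term pools cultures that also differ in time, slide and scan. Its p-values rest on how far the culture difference disagreed between the 2 oxygen levels, moderated over all genes. They hold no spread between replicate cultures. Angpt1 lost the call with spike-in scaling (-0.59, limma adjusted p = 0.0609), and Vegfa gained it with normexp (-0.54, limma adjusted p = 0.0310) and with a trended prior (limma adjusted p = 0.0377).

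The oxygen difference in four-factor cells minus that in untransduced fibroblasts set the genes in a different order. It was 0.79 for Vegfa, 0.14 for Angpt1 and 0.04 for Vegfb, and negative for the other 7 genes, down to -1.04 for Angpt2, -0.94 for Flt1 and -0.73 for Pgf. Vegfc was at -0.50, Figf at -0.51, Nrp1 at -0.34 and Kdr at -0.15. These are values from 4 arrays with no degree of freedom left for a test. The 2 four-factor comparisons and the 2 oxygen comparisons share arrays, so their values are given side by side only.

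Partners of these ligands and receptors were looked at as a list of 16 genes, all on the array, with Tie1 dim on every array. With oxygen in four-factor cells 4 were higher and 11 lower of 15 measured (all genes: 48.1% higher), with a median of -0.36. At 2-fold 0 passed, where 1.26% of all genes were higher and 1.07% lower. In untransduced fibroblasts 2 of 14 passed 2-fold, both higher at 5% O2 (all genes: 2.54%): Tek, the angiopoietin receptor, by 1.72 and the semaphorin Sema3d by 1.28. Against untransduced fibroblasts at 5% O2, four-factor cells had 1 of 14 partners at least 2-fold higher and 8 lower (all genes: 17.1% and 20.0%). At 21% O2 they had 2 higher and 8 lower (all genes: 11.8% and 16.6%). The medians of the partners were -1.58 and -1.10. Tek was among the higher ones, by 1.27 at 5% O2 and 2.61 at 21% O2, so the receptor of the angiopoietins and its ligands Angpt1 and Angpt2 differed in opposite directions between the cultures. The class 3 semaphorins that share Nrp1 or Nrp2 as receptors were lower, Sema3f by -3.94 at 5% O2 and -3.64 at 21% O2 and Sema3a by -2.44 and -2.02. Ccbe1, which assists the maturation of Vegfc, differed by -2.26 and -1.94.

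Other angiogenic ligands and angiogenesis inhibitors formed a list of 16, of which Fgf1, Dll4 and Epo were dim on every array. Apln, the ligand of the apelin receptor, was the 1 of 13 measured that passed 2-fold with oxygen in four-factor cells, higher at 5% O2 by 1.40. Of all genes 1.26% were higher and 1.07% lower there by 2-fold. In untransduced fibroblasts 0 of 12 passed (all genes: 2.54% higher and 1.73% lower). Between cultures 10 of 13 were at least 2-fold lower in four-factor cells at 5% O2 (all genes: 20.0%) and 10 of 12 at 21% O2 (all genes: 16.6%), with medians of -1.88 and -1.50. They included the chemokine Cxcl12 (-4.51 and -4.83), the growth factor Hgf (-4.07 and -4.86) and the inhibitor Serpinf1 (-3.31 and -2.61), so ligands that promote and factors that oppose vessel growth were lower side by side. The hypoxia response list of 14 genes, a check of the oxygen contrast, had 14 of 14 higher at 5% O2 in both cultures, 9 past 2-fold in four-factor cells (median 1.30) and 4 in untransduced fibroblasts (median 0.60). Its Bnip3 (3.09 and 1.23) and Egln3 (3.06 and 1.84) differed by more than Vegfa did (1.36 and 0.57) in both cultures.

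Markers of other cells that could carry these genes were summed as signal over the 75th percentile. Of 14 endothelial markers, 10 (5% O2) and 11 (21% O2) exceeded background in four-factor cells and 5 at each oxygen level in untransduced fibroblasts, with summed levels of 2.54 and 2.56 in four-factor cells, against 3.07 and 3.40 in untransduced fibroblasts. The lowest signal called well above background was -6.90 and -6.85 in four-factor cells, against -5.13 and -4.93. Of all probes 68.4% and 68.1% were called in four-factor cells, against 58.3% and 57.1%. Cdh5 in four-factor cells at 5% O2 (-6.35) lay below every signal called on the untransduced arrays. The counts thus cannot be compared between cultures. Pecam1 and Sox17 were dim on all 4 arrays, and Cdh5 was dim on all but the four-factor array at 5% O2. The endothelial sums of the cultures rest on different genes. Erg read 0.47 (5% O2) and 0.80 (21% O2) in untransduced fibroblasts, against -3.59 and -3.39 in four-factor cells. Mmrn2 read -1.39 and -1.08 in untransduced fibroblasts, against -0.14 and 0.01 in four-factor cells. Of 14 macrophage markers, 6 were above background in four-factor cells at each oxygen level, with sums of 0.733 and 0.893, and 13 in untransduced fibroblasts, with sums of 37.7 at 5% O2 and 17.1 at 21% O2 (Cd163 was dim throughout). Lyz2 was by far the brightest of them in untransduced fibroblasts, at 4.94 (5% O2) and 3.85 (21% O2), so these sums mostly follow 1 gene. In untransduced fibroblasts 13 of 13 macrophage markers were higher at 5% O2 (all genes: 44.8%), by a median of 1.42, beside the Vegfa, Vegfb and Tek differences there. Mural markers, 7 of 8 above background in four-factor cells and 8 of 8 in untransduced fibroblasts, summed to 11.2 and 14.1 in four-factor cells, against 19.3 and 22.4 in untransduced fibroblasts. Of 9 trophoblast markers on the array 3 were above background in four-factor cells and 2 in the untransduced fibroblasts, with sums of 0.478 and 0.577, against 4.24 and 2.55, and 6 were dim on all arrays. Of these markers Krt7, also a general epithelial keratin, differed by -3.53 at 5% O2 and -2.54 at 21% O2, while Prl3d1 differed by 0.12 and 0.40 and Ascl2 was dim in untransduced fibroblasts, so the sums follow 1 gene. The 12 fibroblast markers summed to 513 and 562 in four-factor cells, against 1259 and 1192 in untransduced fibroblasts, and 8 of 12 were at least 2-fold lower in four-factor cells at each level (median -2.05 at 5% O2 and -1.79 at 21% O2). Of all genes 20.0% (5% O2) and 16.6% (21% O2) were lower by that much. In four-factor cells 12 of 12 fibroblast markers were lower at 5% O2, by a median of -0.20, where 48.1% of all genes were higher. The part of any of these cells in the values of the 10 genes was not tested.

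Genes whose 4 values moved most like those of a member were found by the Euclidean distance between profiles centred on their own mean, over 4 arrays and 12674 named genes above background on all of them. Vegfa had the loosest matches, Plekha2 (0.192), Car15 (0.289) and Clybl (0.291). Its closest, Plekha2, was higher at 5% O2 by 1.5 in four-factor cells and 0.76 in the untransduced fibroblasts. For Vegfb they were Ntn3 (0.0891), Arrdc4 (0.0982) and Ddah2 (0.105), for Vegfc Gas6 (0.119), Podxl2 (0.129) and Cpxm1 (0.130), and for Figf Bace2 (0.0266), Sh3rf3 (0.0328) and Wdr17 (0.0467). Pgf had Cd53 (0.0481), Rhpn1 (0.0701) and Tmem40 (0.122), Angpt1 had Smoc1 (0.0306), Clip2 (0.0933) and Sh3bgr (0.101), and Angpt2 had Isg15 (0.163), Usp18 (0.219) and Ltbp2 (0.225). Among receptors, Kdr had Sec24d (0.0582), Kazn (0.0695) and Carmil1 (0.0737), Flt1 had Epha4 (0.163), Gal3st4 (0.180) and Igfbp3 (0.183), and Nrp1 had Pdgfrb (0.0903), Loxl1 (0.120) and Dkk3 (0.140). Many of the 12674 candidates can lie close over 4 arrays, and these neighbours are named as a description only.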

How the data were processed

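Total RNA (Trizol, per the labels' protocols) was hybridised to 4 arrays. Agilent Feature Extraction 9.5.3.1 (design 014868) gave the processed signal, an intensity corrected for background within each array, per the file headers. The authors also deposited a table of log2 values. It matched log2 processed signal minus the 75th percentile within 0.01 for 99.7% of probes, which settles scale and direction, with column medians of -3.87 and -3.86 (four-factor, 5% and 21% O2) and -3.69 and -3.71 (untransduced, 5% and 21% O2).

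Here, log2 of the processed signal was set relative to the 75th percentile over 41174 probes, spots marked as population or non-uniformity outliers (65 to 115 per array) were dropped and replicate spots averaged (spot SD 0.0646 to 0.108 log2). A gene's brightest probe stands for it, and a probe counts as measured when at least 50% of its kept spots were well above background. A gene was counted at 2-fold or more with both arrays measured. Gene names came from the files and a RefSeq gene table (19728 of 27576 names matched). limma 3.58.1 (R 4.3.3) fitted culture and oxygen terms, and its script was tested on simulated data. Alternatives were normexp (offset 50), quantile and spike-in scaling, the deposited table, mean over probes, other filters and a trended prior. Use of the probe with most spots was chosen after seeing the data.

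The 10 genes, the lists and the rule for named genes (all 10, up to 4 list genes per comparison past 2-fold by size, and 3 most alike per gene) were chosen with earlier results of these data known. Tie1, Pecam1, Sox17, Cdh5, Cd163, Fgf1, Dll4 and Epo are named as dim on some or all arrays, and the transduced genes beside the culture labels.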

Additional observations from a re-analysis of the deposited data

Results flagged for a closer look

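For 4 of the 10 genes the oxygen difference had opposite signs in the 2 cultures, lower at 5% O2 in four-factor cells and higher at 5% O2 in untransduced fibroblasts. Angpt2 differed by -0.86 in four-factor cells and 0.18 in the untransduced fibroblasts, a gap of -1.04. The gap was -0.94 for Flt1 (-0.83 in four-factor cells and 0.11 in the untransduced fibroblasts), -0.51 for Figf (-0.35 and 0.16) and -0.50 for Vegfc (-0.36 and 0.14). None of these gaps was tested, because 1 array per condition leaves no degree of freedom for a difference of differences. The Flt1 probe 76.0 kb away (-0.91 in four-factor cells and -0.57 in the untransduced fibroblasts) did not share the opposite signs, and the mean over the Flt1 probes was -0.03 in untransduced fibroblasts.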

How the results depend on the processing

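Among the 280 alternative values of the members' differences, 215 stayed within the spread of spots, 65 moved beyond it and 0 of those past 2-fold changed sign. Many of the 215 could not move. Dropping the filter on dim probes changed no value of these genes, and the probe with most spots changed only Vegfa. The mean over probes cannot change the 4 genes with 1 probe, and the deposited table holds nearly the same values. The 215 are thus no measure of stability. The probe with most spots gave 1 gene at least 2-fold higher with oxygen in untransduced fibroblasts (Vegfa, 1.0) in place of 0. Spike-in scaling gave 5 genes at least 2-fold lower in four-factor cells at 5% O2 in place of 8 (6 with normexp and 7 with quantile normalization), and a culture term for Pgf of 0.23 in place of -0.37, neither past the test. Normexp gave 1 gene higher with oxygen by limma (Vegfa) in place of 0, and the cause of these changes was not tested. Genes higher and lower at 2-fold with normexp numbered 97 and 37 (oxygen, four-factor), 194 and 132 (oxygen, untransduced), 2208 and 2322 (culture, 5% O2) and 1485 and 1997 (culture, 21% O2). By limma the oxygen term called 75 higher and 54 lower genes with spike-in scaling, and 0 with the other alternatives apart from normexp. The culture term called 9563 higher and 2399 lower with spike-in scaling, in place of 4978 and 4157. Vegfc, Figf, Angpt2, Flt1, Nrp1, Vegfb and Kdr kept their culture call under all alternatives run. The limma model already holds culture, and with it the slide, as a term. No replicate could be left out and no paired analysis beyond that term was possible because each condition has 1 array with no replicate number in the labels. With normexp the dim Kdr and Angpt1 probes lost 2-fold between cultures at both oxygen levels. The lowest signal well above background was -6.90 and -6.85 for four-factor arrays (5% and 21% O2), against -5.13 and -4.93 for untransduced ones.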

Other observations

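Among the genes nearest to a member in profile, Pdgfrb, the PDGF receptor of fibroblasts and mural cells, lay nearest to Nrp1 and read 1.65 at 5% O2 and 2.32 at 21% O2 in four-factor cells, against 4.55 at 5% O2 and 4.75 at 21% O2 in untransduced fibroblasts. Gas6, a ligand of TAM receptors, lay nearest to Vegfc and read 3.85 at 5% O2 and 4.30 at 21% O2 in four-factor cells, against 7.44 at 5% O2 and 7.21 at 21% O2 in untransduced fibroblasts. The interferon-induced genes Isg15 and Usp18 lay nearest to Angpt2, with differences between cultures of -3.77 and -3.79 at 5% O2 and -2.95 and -2.78 at 21% O2.

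Mural markers split between the cultures. Rgs5, a pericyte marker, had a difference of 3.43 at 5% O2 and 2.53 at 21% O2 between four-factor and untransduced cells, while the channel subunit Kcnj8 differed by -7.71 and -6.61 and the smooth muscle myosin Myh11 by -1.62 and -2.35. The endothelial transcription factor Erg differed by -4.06 at 5% O2 and -4.19 at 21% O2 and the endothelial protein Plvap by -2.46 and -1.16, while Mmrn2 was higher in four-factor cells by 1.26 and 1.09. Cldn5, a claudin of endothelial junctions, was at least 2.94-fold higher in four-factor cells at 5% O2 than in untransduced fibroblasts, where it was not well above background. No explanation of these values was tested.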
